A study of Rattus norvegicus with 48 samples.

Results

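Olfactory receptors are the largest gene family of the rat genome, and their signal was followed here in kidney RNA. Members were the probe sets that carried 1 gene symbol in the platform annotation and whose symbol began with the family stem Or or the older stem Olr followed by a number. The rule found 872 genes as the platform annotation names them, each with 1 probe set. They came from 7603 probe sets with 1 symbol and 8797 in all, so that members made up 9.91% of the table. The gene ID of 1 of them, Olr1, is that of the oxidized LDL receptor, a scavenger receptor of vessel walls that is no olfactory receptor and shares only the letters of the old stem. It stays in the totals of the 872, is named where it was called, and leaves 871 genes with a median signal of 2.54 when left out. By symbol, 103 were class I receptors (families 51, 52, 55 and 56), 737 were class II and 32 had an Olr symbol without a family number. Of the members, 869 were found in the rat reference annotation (GRCr8), where they lay on 16 chromosomes, with 238 on chromosome 1, 225 on chromosome 3 and 128 on chromosome 8.

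The kidneys were those of males of 4 rat strains, F, L, FL and LF, labelled as 12 weeks of age. The labels do not spell out the strain letters. Rats in the treated groups were gavaged daily with indole-3-carbinol at 100 mg per kg body weight for 7 or 10 days, and the control group was gavaged with vegetable oil carrier. Control kidneys are labelled day 0, so that every comparison of a treated day with day 0 is treated against carrier. Each of the 12 groups of strain and day had 4 arrays, 48 in all. Treatment groups held 8 rats each, and the labels leave unsaid whether arrays carry single animals or pools, so p-values measure the spread between these samples. Values are log2 array signals made with RMA, a method that corrects background, normalizes arrays and sums probes into 1 value per probe set. A difference of 1 is a doubling of signal.

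An olfactory receptor is a membrane receptor that crosses the membrane several times and couples to a G protein. In the sensory neurons of the nose each cell chooses a single receptor gene, and odour binding activates the G protein Golf, adenylyl cyclase 3 (Adcy3) and a channel opened by cyclic AMP (Cnga2, Cnga4, Cngb1). A few family members act outside the nose. In kidney the best known is Or51e2 (mouse Olfr78), a receptor for short-chain fatty acids in the renal blood vessels and juxtaglomerular apparatus with a role in renin release. Indole-3-carbinol occurs in cabbages and related vegetables, and stomach acid turns it into ligands of the aryl hydrocarbon receptor.

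The labelled tissue was checked first. All 9 proximal tubule markers on the array had mean signals between 10.1 and 12.0, the 5 loop and distal tubule markers lay between 8.54 and 12.8, and 4 podocyte markers between 6.45 and 9.35. Array medians ran from 5.66 to 6.06, and correlations between arrays of 1 group from 0.979 to 0.992. The SD over probe sets of an array, called array spread here, ran from 2.29 to 2.54. Grouped by replicate number 1 to 4 (12 arrays each), its mean was 2.48, 2.46, 2.43 and 2.38. The median signal of the olfactory receptors within an array ran from 2.44 to 2.65 with means of 2.53, 2.55, 2.55 and 2.58 by replicate number. Each group of strain and day holds every replicate number once.

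Nearly the whole family lay at the dim end of the array. Mean signals of the 872 receptors ran from 1.83 to 7.10 with a median of 2.54, against a median of 5.86 over all probe sets. Only 4 members lay above that overall median, and 144 (16.5%) lay above the lower quartile of all probe sets at 3.64. The dimmest 10% of the table held 401 receptors, which is 46.0% of the family and 45.6% of those probe sets. Probe sets differ in how strongly they bind their target and the deposited values hold no detection call, so these are positions of array signals, and a low one does not show that an RNA was absent.

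**Figure D1:**
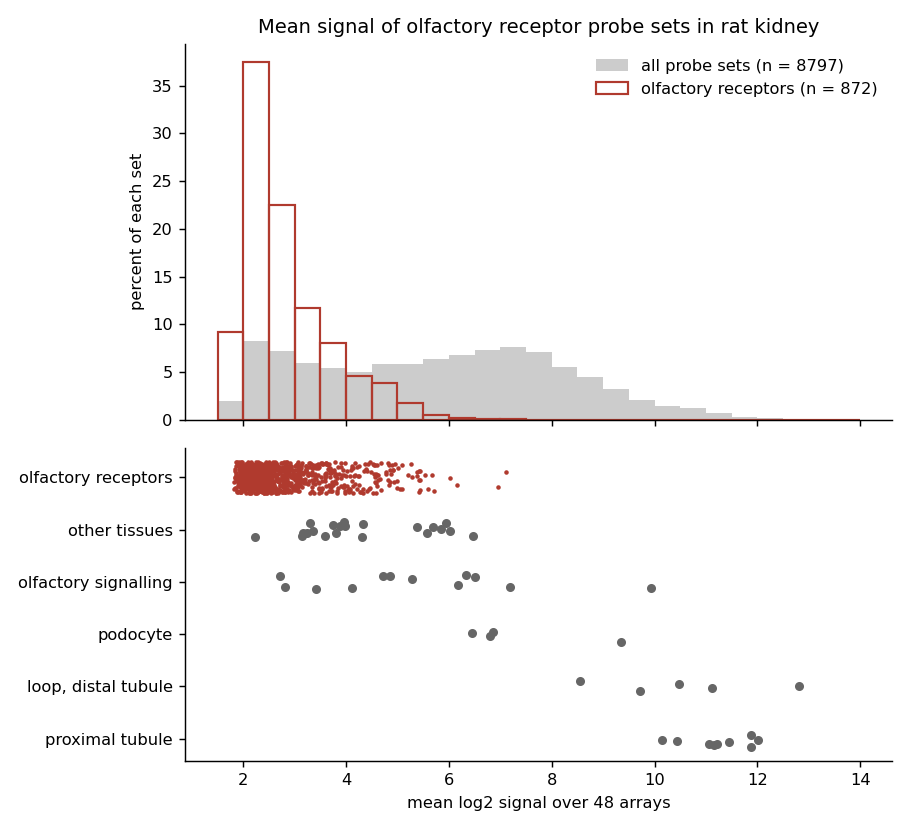
Mean log2 signal over the 48 arrays. The upper panel gives the percent of the 872 olfactory receptors (outline) and of all 8797 probe sets (grey) in steps of 0.5, and the lower panel gives 1 point per gene for the receptors and for marker lists. The receptors crowd between 1.83 and about 4 and lie below every proximal tubule marker.

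Genes restricted to other tissues give a reference for this range. The 21 such genes on the array, among them genes of testis, pancreas, pituitary, muscle and brain, had a median signal of 3.95, and 104 receptors (11.9%) lay above it. Only 2 receptors, Or5ae1 and Olr876, exceeded the brightest of those genes (Cela1, a pancreatic elastase, 6.48). Other chemosensory receptors lay in the same range. The median was 3.45 for 9 trace amine receptors (Taar), 3.01 for 9 bitter taste receptors (Tas2r) and 2.19 for 72 vomeronasal receptors (Vom1r and Vom2r).

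Levels were also set out by branch of the family. Class I receptors had a median of 2.78 and class II receptors of 2.51. Among the families with at least 18 members, family 9 was the brightest with a median of 3.38 (24 genes). Family 14 had the lowest median at 2.24 (18 genes) and family 8 the next at 2.33 (106 genes).

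The brightest receptor was Or5ae1, with arrays between 6.51 and 7.76 (median 7.10, n = 48). Olr876 followed with 6.09 to 7.64 and a mean of 6.95, then Or14j3 with 4.39 to 7.56 and a mean of 6.16, and Olr10 with 4.86 to 6.77 and a mean of 6.03. Olr10 is an older name of Or5ae1 in the reference annotation, and the platform annotation lists both names on separate probe sets. They were counted as 2 members, and Or5ae1 exceeded Olr10 by 0.54 to 2.41 (median 1.01) on the 48 arrays. The next 6 were Or52s19 at 5.71, Or8s10 at 5.68, Or51a42 at 5.60, Or10aa1 at 5.54, Or9s18 at 5.44 and Or2t44b at 5.43. Of these, Or8s10 and Or10aa1 overlap another gene in the reference, so that signal of the neighbour may reach their probe sets. The 5 dimmest, Or5h26b, Or56b2b, Or6c88, Or6c211 and Or10ag59, had means of 1.83 to 1.84. None of the 10 brightest or 5 dimmest receptors passed a test of strain or treatment among the 21 comparisons of the design.

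Olr59, the symbol under which Or51e2 was followed here, was steady. Its arrays lay between 3.89 and 4.96 (median 4.39, n = 48), with group means between 4.19 and 4.58. The SD within groups was 0.20, and the strain test at day 0 gave an adjusted p of 0.844. It overlaps Or51f5 in the reference, so that signal may be shared. Or51e1, a receptor of the same subfamily that also responds to fatty acids, varied between strains.

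The parts of the olfactory cascade were mixed in level. Of 24 genes of the olfactory neuron and its signalling, 12 were on the array. Gnb1, a G protein subunit used by many receptors, had a mean of 9.92 and Ric8b, which assists Golf, 7.19. Adcy3 was at 5.28 and Cngb1 at 4.85. Omp, the marker of mature olfactory neurons, was at 4.11 with arrays between 2.45 and 5.80, and the channel subunits Cnga4 and Cnga2 were at 3.41 and 2.81. The G protein Gnal and the receptor transporters Rtp1 and Rtp2 are not analysed here.

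Receptor signals were noisier than those of other probe sets. The SD between arrays of 1 group had a median of 0.33 over the receptors and 0.21 over all probe sets, and 760 receptors (87.2%) were above the latter. The gap was wide among brighter genes: between 3 and 4 on the log2 scale the median was 0.42 for the 172 receptors and 0.22 for all probe sets. A comparison of 2 groups therefore had a median 95% half-width of 0.45 for a receptor, and a comparison of the strain means at 2 days one of 0.23.

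**Figure D2:**
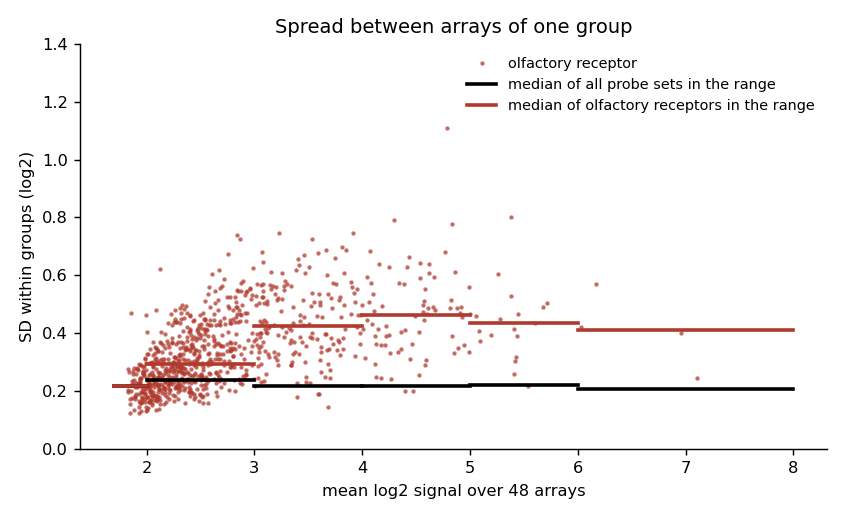
SD between arrays of 1 group against mean log2 signal, 1 point for each of the 872 olfactory receptors, with the median SD of the receptors (red) and of all probe sets (black) in ranges of signal. Between 3 and 4 the receptors' median is 0.42 and that of all probe sets 0.22.

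The first question was whether the strains differ without indole-3-carbinol. In a moderated F test over the 4 strains at day 0, adjusted over all probe sets at 0.05, 6 receptors passed, which is 0.688% of the family. Of all probe sets, 3.43% passed. At an unadjusted p under 0.05 the shares were 4.82% of receptors and 11.9% of all probe sets. The 6 were Or10d5j, Or51q1, Or13a18, Or4z4, Or51e1 and Or2n1, and the gap between their highest and lowest strain means ran from 0.80 to 3.04.

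**Figure D3:**
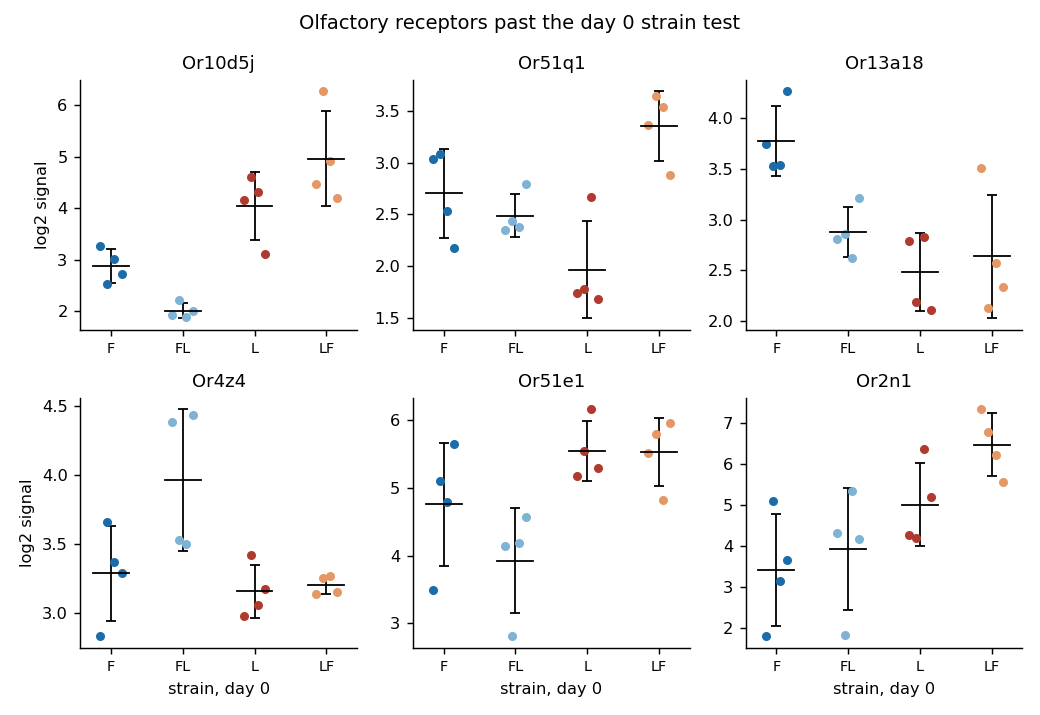
Log2 signal of the 6 olfactory receptors past the day 0 strain test in each of the 4 arrays of strains F, FL, L and LF (points), with mean and SD (bars). Or10d5j separates FL (1.89 to 2.21) from LF (4.19 to 6.27), and Or4z4 is highest in FL.

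Or10d5j, a class II receptor of family 10, had the smallest p. At day 0 its signals were 4.47, 6.27, 4.91 and 4.19 in LF, 4.15, 4.60, 4.32 and 3.10 in L, 3.27, 2.52, 3.01 and 2.73 in F, and 1.92, 2.21, 1.89 and 2.01 in FL. Every LF array lay above every F and FL array, and every FL array lay below those of the other strains. FL was lower than LF by 2.95 ± 0.35 (SE of the fit; adjusted p = 2.24e-07) and lower than L by 2.04 ± 0.35 (adjusted p = 2.76e-04), and LF exceeded F by 2.08 ± 0.35 (adjusted p = 1.50e-04). Each of these calls held without any single array. In whole kidney, fewer cells with a transcript and less transcript per cell cannot be told apart.

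Or10d5j has near copies. The reference holds 4 genes with the stem Or10d5, of which 3 were measured. Or10d5b did not pass the day 0 strain test (arrays 2.49 to 4.45, adjusted p = 0.957), nor did Or10d5 (arrays 3.43 to 4.70, adjusted p = 0.783). The windows around the starts of Or10d5j and Or10d5b, 250 bases before and 50 after, are shown because they are alike on one side and differ on the other. They come from RefSeq (GRCr8) and are written 5′ to 3′ on the minus strand, chr8:49205165-49205464 for Or10d5j and chr8:49217702-49218001 for Or10d5b. Capitals mark the longest run that both share, 85 bases at position 171 of the first and position 165 of the second window.
Or10d5j: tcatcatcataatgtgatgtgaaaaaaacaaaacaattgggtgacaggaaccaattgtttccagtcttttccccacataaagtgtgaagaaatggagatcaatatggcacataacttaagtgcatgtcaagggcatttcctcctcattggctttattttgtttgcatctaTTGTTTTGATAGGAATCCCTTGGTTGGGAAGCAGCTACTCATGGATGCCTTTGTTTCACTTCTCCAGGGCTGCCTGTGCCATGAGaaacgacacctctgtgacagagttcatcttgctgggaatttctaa
Or10d5b: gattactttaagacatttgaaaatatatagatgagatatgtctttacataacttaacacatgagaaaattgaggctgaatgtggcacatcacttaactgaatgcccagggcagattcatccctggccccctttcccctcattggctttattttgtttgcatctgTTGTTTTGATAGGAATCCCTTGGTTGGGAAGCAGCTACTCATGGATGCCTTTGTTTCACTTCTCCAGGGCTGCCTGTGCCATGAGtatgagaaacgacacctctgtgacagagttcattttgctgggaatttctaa
With copies this alike, probes may bind the RNA of more than 1 gene, and the probe sequences were not analysed here.

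Or2n1, a class II receptor of family 2, had the widest strain range of the 6. The reference holds 11 genes with the stem Or2n1, 1 of them a pseudogene, and only 1 of the 11 was measured. Whether the probes of Or2n1 also bind RNA of the others was not tested. At day 0 its signals were 7.33, 6.78, 6.21 and 5.55 in LF, 4.27, 4.19, 6.36 and 5.20 in L, 1.80, 5.10, 3.15 and 3.65 in F, and 4.32, 1.83, 5.34 and 4.18 in FL. All LF arrays lay above all F and FL arrays, while the L arrays overlapped those of the other strains. LF exceeded F by 3.04 ± 0.75 (adjusted p = 0.0157), and FL minus LF was -2.55 ± 0.75 (adjusted p = 0.0492). Leaving out 1 array lost the first call for 4 of 8 arrays, up to an adjusted p of 0.116 without F replicate 1, and the second for 6 of 8, up to 0.265 without FL replicate 2 (-1.85). The second was also lost with array spread as a covariate (0.0612). Its SD within groups, 1.11, was among the widest of the family, and leaving out 1 array at a time lost the strain call at day 0 for 6 of 16 arrays, with the highest adjusted p of 0.172 without LF replicate 1.

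Or51e1, a class I receptor of family 51, was lowest in FL. Its day 0 signals were 4.14, 2.81, 4.19 and 4.57 in FL, 3.49, 5.10, 4.79 and 5.64 in F, 5.18, 5.54, 6.16 and 5.30 in L, and 5.52, 5.79, 4.82 and 5.96 in LF. The FL arrays did not overlap those of L or LF. FL was lower than L by 1.62 ± 0.41 (adjusted p = 0.0262) and lower than LF by 1.59 ± 0.41 (adjusted p = 0.0204). Leaving out 1 array lost these calls for 3 of 8 and 4 of 8 arrays, up to an adjusted p of 0.209 and 0.149, both without FL replicate 2, and the strain test for 4 of 16.

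Or51q1, Or13a18 and Or4z4 each had a different highest strain. Or51q1 was highest in LF, with signals of 3.36, 3.64, 3.53 and 2.88 against 1.74, 1.78, 2.67 and 1.69 in L, a difference of 1.38 ± 0.27 (adjusted p = 0.00447). The L and LF arrays did not overlap, while F, at 2.18 to 3.08, overlapped both. Leaving out replicate number 1 or 2, 12 arrays each, lost this call (adjusted p = 0.0714 and 0.327). The day 0 strain test for Or51q1 was lost in the same 2 cases (0.0584 and 0.277). The gene itself overlaps the embryonic globin gene Hbe1 in the reference. Or13a18 was highest in F, with signals of 3.75, 3.53, 3.54 and 4.27 against 2.79, 2.18, 2.83 and 2.11 in L and 3.51, 2.13, 2.57 and 2.33 in LF, and no array of another strain reached the lowest of F. F exceeded L by 1.29 ± 0.29 (adjusted p = 0.00831), and LF minus F was -1.14 ± 0.29 (adjusted p = 0.0237). Without F replicate 4 these had adjusted p values of 0.0678 and 0.131, and 5 of 8 arrays lost the LF against F call, up to 0.145 without LF replicate 2. The copies Or13a18b and Or13a18c did not pass the day 0 strain test (adjusted p = 0.757 and 0.920).

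Or4z4 was highest in FL, with signals of 4.38, 3.53, 3.50 and 4.43. The L arrays ranged from 2.98 to 3.42, those of LF from 3.14 to 3.27 and those of F from 2.83 to 3.66, so that F alone overlapped it. FL exceeded L by 0.80 ± 0.20 (adjusted p = 0.0207) and LF by 0.76 ± 0.20 (adjusted p = 0.0232). Without FL replicate 4 these had adjusted p values of 0.144 and 0.129, and without FL replicate 1 of 0.119 and 0.110. The call against L was also lost without L replicate 1 (0.0944) or 3 (0.0830). That against LF was lost without LF replicate 1 (0.0753) or 2 (0.0547). The strain test for Or4z4 was lost without FL replicate 1 (0.2099) or 4 (0.2475).

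Counted by pair at day 0, receptor calls were few. There was 1 for F against L (1.55% of all probe sets called), 0 for FL against F (0.0682%), where 48 receptors (5.5%, against 4.17% of all probe sets) had an unadjusted p under 0.05 with limma, and 1 for LF against L (0.193%). There were 5 for FL against LF (3.07%), 3 for FL against L (1.59%) and 4 for LF against F (2.11%). Without LF replicate 2 there was 1 for FL against LF and 1 for LF against F, without F replicate 1 also 1 for LF against F, and FL against L ranged from 2 to 5 over single omissions. Outside the 6 receptors above, only Or9g4 and Or9k2b were called. Or9g4 had 3.52, 3.87, 3.36 and 3.24 in FL and 2.72, 1.60, 2.45 and 2.35 in LF, which do not overlap (difference 1.22 ± 0.32, adjusted p = 0.0206). Without LF replicate 2 or FL replicate 2 its adjusted p was 0.158 or 0.0938. Or9k2b had 2.45, 2.67, 2.26 and 2.44 in F and 1.88, 2.05, 2.04 and 1.87 in LF (-0.50 ± 0.14, adjusted p = 0.0483), and 7 of 8 single arrays lost the call when left out, up to 0.188 without F replicate 2.

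The same strains were also measured on the treated days, where the pairs called at day 0 had no call for Or13a18, Or51q1, Or4z4, Or9g4 and Or9k2b. For Or13a18, F minus L was -0.01 at day 7 and -0.05 at day 10, and LF minus F was 0.47 and -0.17 (each ± 0.29), the first opposite in sign to day 0. For Or51q1, LF minus L was -0.36 and 0.28 (each ± 0.27), and for Or4z4, FL minus L was 0.04 and -0.12 and FL minus LF was 0.30 and 0.07 (each ± 0.20). For Or9g4, FL minus LF was 0.02 and -0.29 (each ± 0.32), and for Or9k2b, LF minus F was -0.13 and -0.10 (each ± 0.14). These kidneys had also received indole-3-carbinol, so day and treatment cannot be told apart.

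Or2n1 and Or10d5j had a called pair at day 7, and Or51e1 had none on the treated days. Or2n1 was higher in LF than in F by 2.69 ± 0.75 at day 7 (adjusted p = 0.0447; 2.16% of all probe sets called) and by 1.84 ± 0.75 at day 10 (adjusted p = 0.160). Its day 7 signals were 1.66, 3.38, 1.59 and 5.27 in F against 6.0, 5.02, 6.0 and 5.92 in L, which overlap by 1 array, and F was lower than L by 2.76 ± 0.75 (adjusted p = 0.0364; 2.14% of all probe sets called). Or10d5j was also lower in F than in L at day 7, by 1.28 ± 0.35 (adjusted p = 0.0432). FL minus LF for Or10d5j was -0.23 at day 7 and -1.0 at day 10 (each ± 0.35). For Or51e1 it was -0.39 and -1.38 (each ± 0.41, adjusted p = 0.879 and 0.0660).

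**Figure D4:**
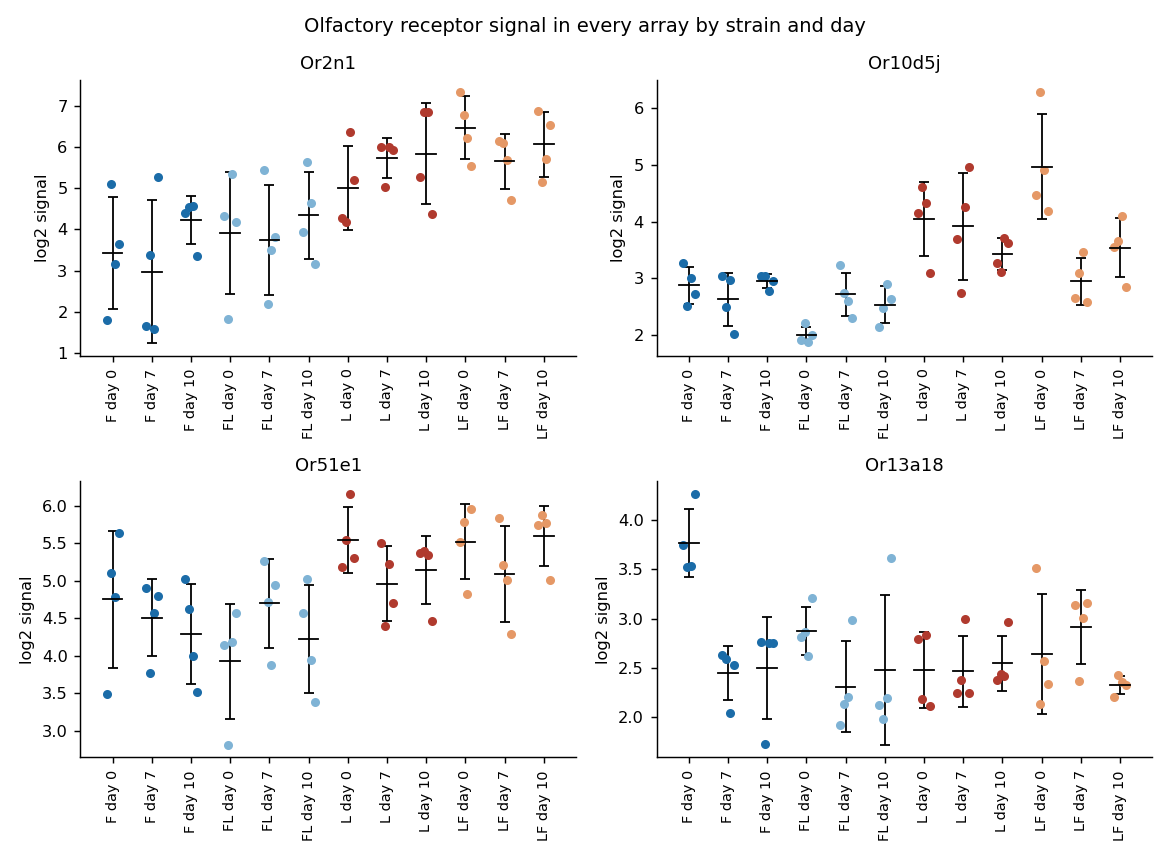
Log2 signal of Or2n1, Or10d5j, Or51e1 and Or13a18 in every array by strain and day (points; bars are mean and SD, n = 4). For Or2n1 the L and LF arrays lie between 4.19 and 7.33 on all days. Those of F run from 1.59 to 5.27 and those of FL from 1.83 to 5.64, so that the ranges overlap. Or13a18 is raised in F at day 0 alone.

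A comparison of strains over the mean of the 3 days, added after these values were seen, called 11 receptors, 1.26% of the family against 12.9% of all probe sets. It contains the day 0 arrays by which the 6 receptors were found, so it is no independent check of them. Of the 6 it called Or10d5j (adjusted p = 4.45e-07), Or2n1 (2.62e-05) and Or51e1 (8.59e-04), whose unadjusted p at day 7 alone was 0.508. Or51q1 (0.0717), Or4z4 (0.0775) and Or13a18 (0.292) did not pass. Over 12 arrays per strain, Or2n1 averaged 3.54 in F, 4.00 in FL, 5.52 in L and 6.06 in LF. Or10d5j averaged 2.82, 2.42, 3.80 and 3.82, and Or51e1 4.52, 4.29, 5.22 and 5.40, in the same order of strains. LF minus L was 0.54 ± 0.43 for Or2n1, 0.02 ± 0.20 for Or10d5j and 0.19 ± 0.24 for Or51e1 (adjusted p = 0.998 for each), and FL minus F was 0.46 ± 0.43, -0.40 ± 0.20 and -0.23 ± 0.24 (adjusted p = 0.816, 0.657 and 0.826). The 8 further receptors were Or1e22, Or4g17, Or4k35, Or2b4, Or13c7, Or5m10, Or4k1 and Or14c39b, with strain ranges from 0.29 to 0.85. Of the 10 brightest receptors, Or9s18 was called in LF against F over all days (adjusted p = 0.0423; 7.57% of all probe sets).

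An unadjusted p under 0.05 on each of the 3 days was reached by 3 receptors, Or2n1, Or10d5j and Or14c39b. This is 0.344% of the family against 3.96% of all probe sets. The F test does not ask for the same order of strains on each day. For Or14c39b the lowest mean was in F at day 0 (1.79), L at day 7 (1.97) and LF at day 10 (1.76). Its unadjusted p in the F test at day 7 was 0.0498. Passing the strain test at day 7 were 2 receptors, Or2n1 and Or5ac19, against 4.09% of all probe sets. At day 7 Or5ac19 separated L (2.27 to 2.54) and FL (2.28 to 2.44) from F (1.78 to 2.07) and LF (1.68 to 2.05). At day 0 the order was the other way, with means of 1.94 in L and 1.97 in FL against 2.10 in F and 2.14 in LF. At day 10 LF was highest (2.31). Or5ac19 was dim, with a mean of 2.11 over all arrays, at percentile 3.8 of all probe sets. At day 10 there were 4, namely Or1e22, Or6k14, Or14c39b and Or8c20, against 4.97%, and all had means of 1.79 to 2.58 in every strain over all days. With the replicate number as a block these counts were 5 at day 7 and 12 at day 10, beside 6.78% and 10.2% of all probe sets. With array medians subtracted they were 6 and 18, beside 6.26% and 7.33%.

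Genes next to the 6 receptors were looked at as well. In the order of the reference, the 10 nearest measured genes on each side of Or10d5j, Or51e1, Or51q1, Or4z4 and Or13a18 held 0 genes past the day 0 strain test (limma), and 0 over all days. Of the 20 neighbours of each, 17, 19, 15, 15 and 16 were themselves olfactory receptors. In these tests 0.688% and 1.26% of the receptors passed, against 3.43% and 12.9% of all probe sets, so few calls could fall among these neighbours. Around Or2n1, 13 such neighbours were measured, of which 11 were olfactory receptors. Of them Tmlhe, which encodes an enzyme of carnitine synthesis and is no receptor, was called at day 0 (adjusted p = 7.62e-08). Tmlhe signals over all days were 9.0 to 9.63 in F and 9.03 to 9.59 in FL, against 8.34 to 8.84 in L and 8.11 to 8.82 in LF, with no overlap. Tmlhe was thus lower in the strains where Or2n1 was higher. The receptor Or2b4, 8 measured genes away on the other side, was called over all days (adjusted p = 0.0344) with means of 4.17 in F, 4.35 in FL, 3.49 in L and 4.15 in LF. Tmlhe and Or2b4 were singled out after their values were seen.

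The window at the start of Or2n1 is shown as the sequence of the receptor with the widest strain range. It lies at chr20:418771-419070 on the minus strand (RefSeq, GRCr8), and capitals mark TAATTA, a core bound by homeodomain proteins such as Lhx2, which takes part in receptor choice in the nose.
Or2n1: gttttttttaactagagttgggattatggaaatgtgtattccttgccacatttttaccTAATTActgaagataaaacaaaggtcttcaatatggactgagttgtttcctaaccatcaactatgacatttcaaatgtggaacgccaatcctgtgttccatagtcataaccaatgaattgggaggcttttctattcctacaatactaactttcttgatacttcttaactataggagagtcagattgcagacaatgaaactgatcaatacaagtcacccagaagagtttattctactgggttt
Of the 872 members, 746 have such a window. TAATTA was present in 18.1% of these and in 5.36% of the 33469 windows of all genes. Being a palindrome, it reads the same on both strands. GCGTG, the core of the aryl hydrocarbon receptor site, was found on either strand in 3.49% of receptor windows and 29.7% of all. The windows differ in base composition, with a median GC content of 35.7% for receptors and 51.7% for all genes. In 99.6% of receptor windows the annotated start is an ATG, against 9.0% of all, so that most receptor windows lie before the start codon and not before a mapped transcript start. Neither motif was present in the windows of Or10d5j, Or10d5b, Or51e1, Olr59 and Or6b2b.

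The second question was what indole-3-carbinol changed. In the mean of the 4 strains, 4 receptors were called at day 7 against day 0 and all 4 were higher. This is 0.459% of the family. Of all probe sets, 4.94% were called, 1.19% as higher. The shift of the whole family was small, with a median difference of 0.04 over the receptors and -0.03 over all probe sets.

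Or6k14b had 16 day 0 arrays from 1.79 to 2.70 (median 2.21) and 16 day 7 arrays from 2.15 to 3.13 (median 2.49), a rise of 0.34 ± 0.08 (adjusted p = 0.0114). Or13p5 went from a median of 4.96 (4.25 to 5.63) to 5.38 (4.81 to 5.96), a rise of 0.48 ± 0.14 (adjusted p = 0.0344), and stood at 4.95 at day 10. Or12j2 went from a median of 2.79 to 3.17, a rise of 0.46 ± 0.14 (adjusted p = 0.0420). Or1ad6 went from 3.41 to 3.77, a rise of 0.38 ± 0.12 (adjusted p = 0.0426). The arrays of the 2 days overlapped for each of the 4. In every strain the change was above 0, but its interval included 0 in 3 strains for Or6k14b, Or12j2 and Or1ad6 and in 2 for Or13p5. With array spread as a covariate Or13p5 (adjusted p = 0.0942), Or12j2 (0.0795) and Or1ad6 (0.0673) were not called. Single arrays, left out in turn, lost the call in 10, 16 and 18 of 32 cases for the same 3, and in 0 for Or6k14b. Adjusted p reached 0.0679 without L day 0 replicate 3 for Or13p5 and 0.0848 without L day 7 replicate 2 for Or12j2. For Or1ad6 it reached 0.0937 without F day 7 replicate 4, and a second quantile normalization also lost the call (0.0512). All 4 calls were lost without replicate number 2 and without number 3 (12 arrays each), with Or6k14b at 0.0720 and 0.247. With the replicate block 12 receptors were called at day 7 (1.38%), beside 11.1% of all probe sets.

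**Figure D5:**
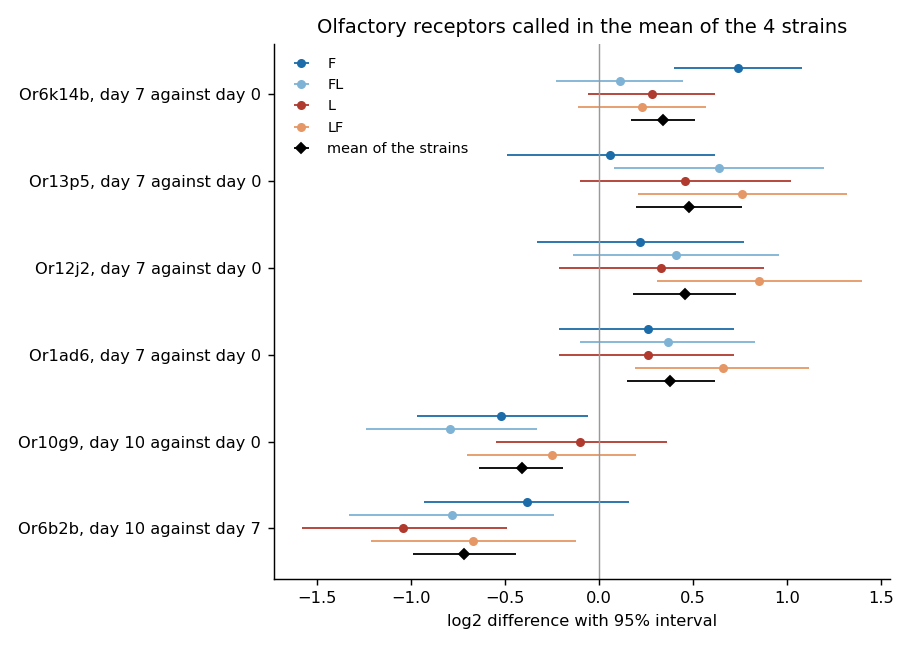
Log2 difference with 95% interval for the 6 olfactory receptors called in the mean of the 4 strains (diamonds), and the same difference within F, FL, L and LF (circles, 4 arrays against 4). The receptors were chosen by their call in the mean, so each interval of the mean excludes 0 by that choice. Within strains, on the same arrays, the signs agree for all 6.

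At day 10 against day 0, which uses the same control arrays, 2 members were called, 0.229% of the 872 against 2.41% of all probe sets, and only 1 of them, Or10g9, is an olfactory receptor (0.115% of 871). The oxidized LDL receptor Olr1 went from a median of 3.38 (2.78 to 3.69) to 3.75 (3.24 to 4.48), a rise of 0.42 ± 0.11 (adjusted p = 0.0176). Or10g9 went from 2.63 (2.14 to 3.08) to 2.21 (1.61 to 2.69), a fall with a difference of -0.41 ± 0.11 (adjusted p = 0.0339). Leaving out 1 array lost the Or10g9 call in 15 of 32 cases, up to 0.0775 without L day 10 replicate 1. With the replicate block 5 members were called, beside 3.38% of all probe sets, and with array spread as a covariate 8, beside 5.77%.

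Between the treated days only Or6b2b, of family 6, was called (0.114% of all probe sets, 10 in number). Its 16 day 7 arrays lay between 3.38 and 4.80 (median 4.09) and its 16 day 10 arrays between 2.41 and 4.14 (median 3.23), with day 0 between at 3.74. It was lower at day 10 by 0.72 ± 0.14, with a difference of -0.72 and an adjusted p of 0.00993. The strains gave -1.04 in L, -0.78 in FL, -0.67 in LF and -0.38 in F (each ± 0.27). The call held without any single array, and was lost without any 1 of the replicate numbers, which leaves out 12 arrays. The neighbouring copy Or6b2 had a difference of 0.17 (unadjusted p = 0.214).

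Within strains, receptor calls came from F and LF. In F at day 7 there were 3 (0.671% of all probe sets called). Or6s1 had 2.50, 2.75, 3.02 and 2.54 at day 0 and 1.78, 2.15, 1.74 and 1.86 at day 7, a difference of -0.82 ± 0.17 (adjusted p = 0.00680) with no overlap, and 2.24 to 2.74 at day 10. Without F day 0 replicate 3 its adjusted p was 0.0572. Or6k14b had 2.07, 2.41, 1.92 and 2.02 at day 0 and 2.70, 2.93, 3.13 and 2.62 at day 7, which do not overlap (0.74 ± 0.17, adjusted p = 0.0159). Leaving out 1 array lost that call for 5 of 8, up to 0.125 without F day 7 replicate 3. Or13a18 had 2.63, 2.59, 2.04 and 2.53 at day 7, below all 4 of its day 0 arrays.

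The Or13a18 difference in F was -1.32 ± 0.29 at day 7 (adjusted p = 0.0116) and -1.28 ± 0.29 at day 10 (adjusted p = 0.0357), where it was the only receptor called (0.239% of all probe sets). Both falls and both strain differences of this receptor at day 0 rest on the same 4 arrays of F at day 0. Without F day 0 replicate 4 or F day 7 replicate 3 the day 7 adjusted p was 0.0967 or 0.0803. With array medians subtracted the day 10 adjusted p was 0.0517. Each of the 8 arrays, left out alone, lost the day 10 call, up to 0.258 without F day 0 replicate 4.

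In LF the only receptor called was Or10d5j, at day 7 (2.26% of all probe sets) and at day 10 (0.887%). From the day 0 values given above it went to 2.65, 3.09, 3.47 and 2.58 at day 7 and 3.56, 3.66, 4.09 and 2.85 at day 10. No treated array reached the lowest LF array of day 0. The differences were -2.01 ± 0.35 (adjusted p = 5.54e-04) and -1.42 ± 0.35 (adjusted p = 0.0348), against the same 4 control arrays. The day 0 differences of LF from FL and F rest on these 4 arrays too, so the falls are not separate from them. Without LF day 0 replicate 2, the highest of all arrays, the falls had differences of -1.58 (adjusted p = 0.0120) and -0.98 (adjusted p = 0.323). For the day 10 call, 5 of 8 arrays lost it when left out. In FL, Or10d5j was 1.89 to 2.21 at day 0 and 2.31 to 3.23 at day 7. A test of the difference in response between strains called 0 receptors with limma (0.193% of all probe sets). Or10d5j had the smallest p there (adjusted p = 0.0583), and 41 receptors (4.70%) had an unadjusted p under 0.05, against 6.23% of all probe sets. With the replicate block it was called (adjusted p = 0.0432), as with array medians subtracted (0.0324) or array spread as a covariate (0.0349).

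In LF the whole family moved slightly at day 7, with a median difference of 0.07 over the receptors and -0.06 over all probe sets. This was not particular to LF. The medians were 0.065 and -0.05 in F at day 10, 0.0575 and -0.035 in FL at day 7, and 0.03 and -0.025 in L at day 7. In F at day 7 they were -0.0075 and -0.005. The signs were the other way at day 10 in L (-0.0125 and 0.0225) and FL (-0.01 and 0.015). The LF array spread averaged 2.47 at day 0 and 2.40 at day 7. With the block 8 receptors were called in LF at day 7 (8.21% of all probe sets), with array medians subtracted 6 (3.49%) and with array spread as a covariate 5 (3.09%). The part of array spread in the family's shift was not tested.

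In L and FL, 0 receptors were called at either day with limma (0.0114% of all probe sets in L at both days, 0.159% and 0.0909% in FL). An unadjusted p under 0.05 was reached by 40 and 37 receptors in L and by 61 and 35 in FL at days 7 and 10. These are 4.59%, 4.24%, 7.0% and 4.01% of the family, against 4.01%, 4.30%, 6.21% and 4.24% of all probe sets. The smallest adjusted p values were 0.682 for Or5ac19 and 0.353 for Or6b2b in L, and 0.353 for Or1e16d and 0.442 for Or10g9 in FL.

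Over the 21 comparisons of the design, 21 members (2.41%) were called at least once, 20 without Olr1 (2.30% of 871). Of all probe sets, 12.6% were. Of the 12 measured genes of the olfactory neuron and its signalling, Adcy3 alone changed with treatment. It was lower at day 7 in the strain mean, with a difference of -0.22 ± 0.05 (adjusted p = 0.00235), and in LF, with -0.37 ± 0.09 (adjusted p = 0.0220), and stood at -0.15 ± 0.05 at day 10 (adjusted p = 0.0697). Some kidney markers were called lower in the same day 7 comparison, as were 3.75% of all probe sets. These were 4 of 5 of the loop and distal tubule (median difference -0.25) and 2 of 4 of the collecting duct (-0.27). Also lower were 2 of 9 of the proximal tubule (-0.08) and 1 of 4 of podocytes (-0.07). Of 5 broadly expressed genes, 1 was called lower too (-0.18). The part of these shifts in the Adcy3 result was not tested. Obp1f, an odorant-binding protein of the nasal lining and 1 of 3 measured support genes, was higher in F at day 10 by 1.54 ± 0.32 (adjusted p = 0.0136) and otherwise dim, with a mean of 2.52.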

How the data were processed

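The deposited table held log2 signals of 8797 probe sets on 48 arrays, which the authors made with RMA. Per the submitters' processing notes, RMA and limma were used, without versions. How probe sets were chosen is not given in the sources used here. Values with 0 missing entries were used as deposited. In R 4.3.3 with limma 3.58.1, the model gave each of the 12 groups a mean, with 36 degrees of freedom left and 3.69 from the prior. Contrast p-values over the full table were adjusted by Benjamini-Hochberg, with a threshold of 0.05. Errors are standard errors of that fit, intervals are 95%, and array number limits the precision. Members and lists were chosen with earlier results of these data known.

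Receptors were named by rule: the 10 brightest and 5 dimmest, those past a test at day 0 or after treatment, or the smallest p where none passed, and Or51e1, Or51e2, Or6b2b and Or10d5j. Receptors of the strain tests at days 7 and 10, over all days, and neighbours were singled out after their values were seen. Arrays of the same replicate number share a scan-file stem in the labels, so the number was used as a block in an alternative fit. Residuals of such arrays correlated by 0.094 on average and those of different numbers by -0.031. Sequences are from RefSeq (GRCr8). The code was tested on simulated data. Protein and probe sequences were not analysed here.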

Additional observations from a re-analysis of the deposited data

Results flagged for a closer look

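The 12 groups of 4 arrays were screened for a single array far from its other 3 in 18 members, 216 groups in all, and 15 were marked. Chance marks about 1 in 20 groups. Or13a18 had the most. In F at day 7 replicate 3 was at 2.04 with the others at 2.53 to 2.63, in F at day 10 replicate 2 was at 1.72 (others 2.75 to 2.76), in L at day 10 replicate 4 was at 2.96 (2.37 to 2.43), and in FL at day 10 replicate 4 was at 3.62 (1.98 to 2.19). Or51q1 was at 2.67 in L day 0 replicate 3 (1.69 to 1.78) and at 3.37 in L day 7 replicate 1 (2.61 to 2.68). Or51e1 was at 4.47 in L day 10 replicate 4 (5.34 to 5.40) and at 5.01 in LF day 10 replicate 4 (5.75 to 5.88). Or2n1 was at 3.36 in F day 10 replicate 4 (4.39 to 4.58) and at 5.02 in L day 7 replicate 2 (5.92 to 6.0). Or10g9 was at 2.14 in F day 0 replicate 2 (2.74 to 2.83) and at 1.93 in L day 7 replicate 4 (2.29 to 2.33). Or12j2 was at 2.82 in LF day 7 replicate 1 (3.59 to 3.65), Or5ac19 at 2.35 in L day 0 replicate 4 (1.78 to 1.84), and Olr1, the oxidized LDL receptor, at 2.78 in L day 0 replicate 4 (3.52 to 3.64).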

How the results depend on the processing

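Counts of the 872 members called, Olr1 included, are given against those of the report, and the cause of each shift was not tested. With the replicate number as a block, 2 were called for F against L, 6 for FL against LF, 12 at day 7 and 5 at day 10 in the strain mean, 8 and 2 in LF at days 7 and 10, 7, 5 and 12 in the strain tests at days 0, 7 and 10, and 1 in the interaction. With array medians subtracted there were 5 for FL against L, 7 for FL against LF, 10 at day 7 in the strain mean, 6 and 2 in LF and 0 in F at day 10, 8, 6 and 18 in the strain tests, and 1 in the interaction. With array spread as a covariate there were 2 for F against L, 6 for FL against L, 7 for FL against LF, 8 at day 10 in the strain mean, 5 in F at day 7, 5 and 2 in LF, 8, 6 and 7 in the strain tests, and 1 in the interaction. A second quantile normalization gave 2 for F against L, 5 for FL against L, 4 at day 10 in the strain mean, 2 in LF at day 7 and in F at day 10, and 4 in the strain test at day 7. Strains compared over all 3 days, added after seeing the data, gave 11.

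Leaving out the dimmest 25% of probe sets kept 144 receptors. There were then 0 for F against L and LF against L, 2 for FL against LF, 1 for FL against L and LF against F, 3 and 0 in the strain mean at days 7 and 10, 0 in F and LF at either day, and 2, 1 and 1 in the strain tests; fewer members entered. A prior variance trend left each count as it was. A mean over probe sets could not change a member's values, since each member was counted with 1 probe set, Or5ae1 and Olr10 apart.

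Without 1 replicate number or 1 array, counts ran from 0 to 2 for F against L, 0 to 1 for LF against L, 1 to 5 for FL against LF, 2 to 7 for FL against L and 1 to 5 for LF against F. They ran from 1 to 9 at day 7, 0 to 5 at day 10 and 0 to 2 between these days in the strain mean, 0 to 4 and 0 to 1 in F, 1 to 4 and 0 to 3 in LF, 0 to 1 in L at day 7, and 2 to 8, 0 to 5 and 1 to 8 in the strain tests. The receptors' median signal stayed below that of all probe sets by 3.29 to 3.36, and no direction reversed. The values hold no detection call, so signal over background is unknown.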
